A study of Saccharomyces cerevisiae with 9 samples.

Results

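Budding yeast makes its nuclear transcripts with 3 RNA polymerases, and the transcripts for their subunits and for the RRN initiation factors of polymerase I were followed here across 3 strains. Members were the rows whose symbol was RPA, RPB, RPC or RRN followed by digits, together with RPO21, RPO26, RPO31 and RET1, and they had to average 10 or more normalized reads across the 9 libraries. This rule found 38 genes among 6215, and all 38 passed the filter on low values, which left 5886 genes to test. They comprised 7 subunits specific to polymerase I, 7 specific to polymerase II and 10 specific to polymerase III. A further 2 subunits are shared by polymerases I and III, 5 are shared by all of them, and 7 genes encode RRN initiation factors.

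Polyadenylated RNA had been sequenced from untreated haploid MATα cells after 24 h in synthetic complete medium at 28 °C, in 3 libraries per strain that the labels call biological replicates. Before lysis all cells had been washed with 10 mM NaF/NaN3. The triple mutant lacked SEG1, NCE102 and PIL1, which encode proteins of the eisosome, a protein assembly at furrows of the plasma membrane, and it carried his3Δ1, leu2Δ0 and ura3Δ0 with LYS2 and MET15 intact. The pil1 strain was BY4742 with PIL1 replaced by a kanMX4 cassette. The wild type was BY4742, with his3Δ1, leu2Δ0, lys2Δ0 and ura3Δ0, and pil1 shared these alleles. The triple mutant thus differed from both other strains at LYS2, SEG1 and NCE102, and from wild type also at PIL1. Effects of these differences cannot be told apart. The labels say nothing of how many independent clones stood behind each strain.

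Depth was 21064051 to 27014469 recovered reads per library. The 3 deleted genes followed the genotypes, with PIL1 at 90 to 100 normalized reads in the triple mutant, 111 to 116 in pil1 and 15880 to 21400 in wild type, and LYS2 had 0 reads in pil1 and wild type. MATα-specific transcripts were present in all libraries. Their 4 markers summed to 5759 to 6832 normalized reads in the triple mutant, 11883 to 12546 in pil1 and 14706 to 16365 in wild type, and limma called 4 of 4 lower in the triple mutant against wild type. The 5 markers of MATa cells, which the cultures should lack, summed to 493 to 512, 1206 to 1511 and 1281 to 1668 normalized reads in the same order, with none at 0 and 4 of 5 called lower. The part of these shifts in the results was not tested. Replicate 1 of the triple mutant stood apart, its chi-square per degree of freedom being 400.8 with replicate 2 and 314.5 with replicate 3, where replicates 2 and 3 differed by 52.7. Replicate 2 of wild type and of pil1 was low for many polymerase genes, as described further on.

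Polymerase I transcribes the precursor of the large ribosomal RNAs in the nucleolus, polymerase II makes messenger RNAs and most small nuclear RNAs, and polymerase III makes transfer RNAs, 5S ribosomal RNA and other small RNAs. Each enzyme has its own pair of large catalytic subunits, a stalk and peripheral subunits, and shares a set of small core subunits with the others. Growing yeast adjusts the output of polymerases I and III to nutrients, largely through the TOR and protein kinase A pathways. Promoters of many genes for ribosome assembly and for these polymerases carry a PAC element, named after polymerases A and C (older names of I and III), and an RRPE element. In yeast PAC is bound by the repressors Dot6 and Tod6, and RRPE by Stb3.

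The upstream sequences are shown because PAC was unevenly spread over the classes of polymerase genes. The core letters GATGAG were searched on both strands in the 300 bases before each coding start in the R64 reference, where all 38 identifiers were found. They occurred upstream of 20 of 38 members (52.6%), against 18.6% of 5801 tested genes with upstream sequence. By class this was 6 of 7 polymerase I genes, 0 of 7 polymerase II genes, 8 of 10 polymerase III genes, 2 of 2 genes shared by I and III, 0 of 5 genes shared by all of them and 4 of 7 RRN genes. The longer form GCGATGAG, which contains the core, was upstream of 7 members (18.4%) and of 4.17% of all. Windows of 30 bases follow for 12 of the 20 members with the core, namely all such polymerase I genes and those shared by I and III, RRN11, the large-subunit genes of polymerase III and its called stalk gene RPC25. They are read 5′ to 3′ on the coding strand of each gene, and the core is in capitals (CTCATC is the core on the opposite strand).
RPA190, chrXV:960806-960835, plus strand: atttcaaatCTCATCTCATCtcttaaaaag
RPA135, chrXVI:581285-581314, minus strand: tcttagagaCTCATCTCATCtcttaattat
RPA43, chrXV:960347-960376, minus strand: tgaaaagattccGATGAGggtgtatgggtg
RPA49, chrXIV:182721-182750, minus strand: attttttattgcGATGAGctgaaattttcc
RPA34, chrX:140315-140344, plus strand: aaaaattttatcGATGAGcattgaatagct
RPA14, chrIV:769454-769483, plus strand: gattatagaggtCTCATCggtaaggcagag
RRN11, chrXIII:191934-191963, minus strand: taaacatCTCATCTCATCTCATCtcagatg
RPC19, chrXIV:412632-412661, plus strand: atattcacctgcGATGAGctggaaaaaaaa
RPC40, chrXVI:746901-746930, minus strand: aaaaattattgcGATGAGttgaaagaaaaa
RET1, chrXV:733569-733598, minus strand: ttgtaattgtgaGATGAGctgaaaattttt
RPC25, chrXI:176658-176687, minus strand: attcaggcgatgCTCATCgcttaaaatttt
RPO31, chrXV:544226-544255, minus strand: taaatttttaaaCTCATCactggttggtta
RPA190 and RPA135, which encode the large catalytic subunits of polymerase I, both hold the core as an overlapping repeat of 2, and RRN11 as a repeat of 3. Upstream of RPC53, a polymerase III gene that was not called, there were 3 cores, of which 2 overlapped. RRPE, spelled AAAAATTT and searched likewise, was upstream of 23 of 38 members (60.5%) against 15.5% of all. Both the core and RRPE occurred at 16 members (42.1%) against 5.74% of all, among them 6 of 7 polymerase I and 7 of 10 polymerase III genes. A match describes the letters in the window and does not show a bound site.

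**Figure D1:**
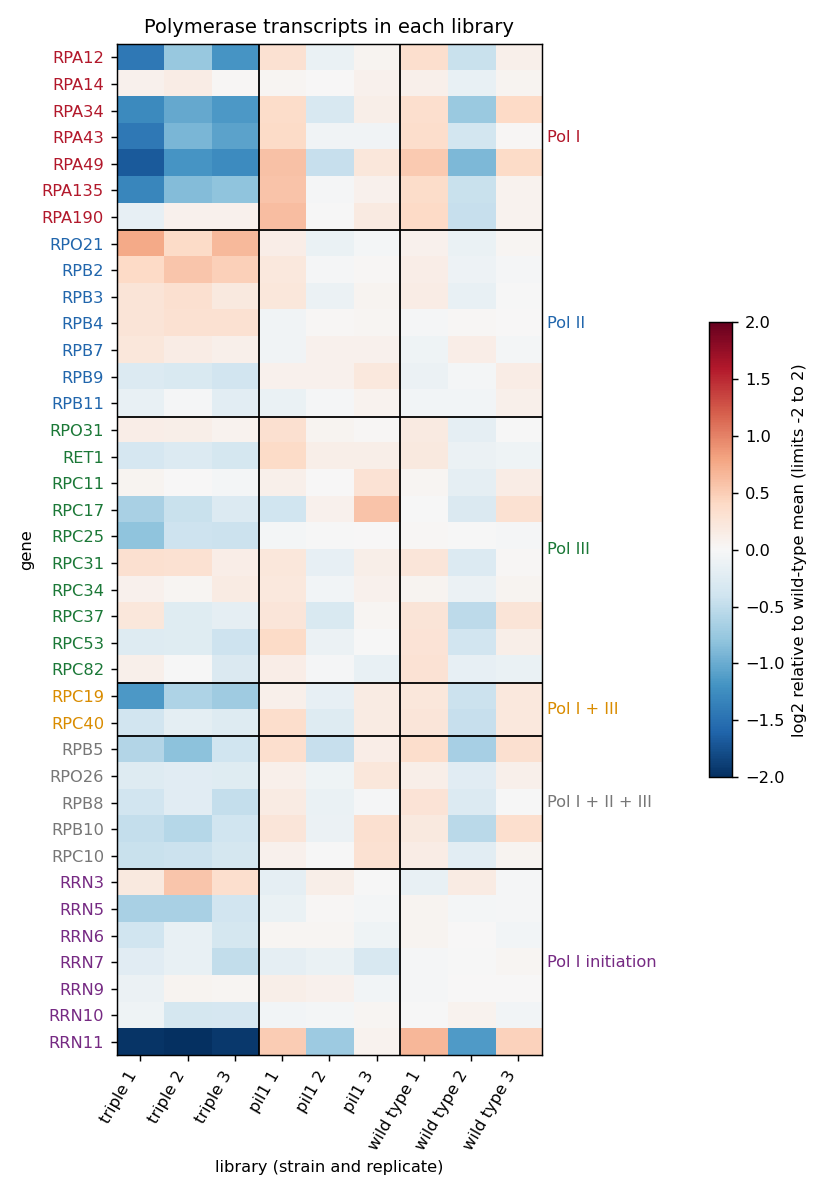
Log2 level of each polymerase gene (y axis, grouped by enzyme) in each library (x axis, triple mutant, pil1, wild type) relative to its wild-type mean; the colour scale ends at -2 and 2 (log2). Among polymerase I genes, RPA14 and RPA190 are pale in the triple mutant where the other 5 are blue.

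The first question was how polymerase transcripts differed between the triple mutant and wild type. Values are reads normalized by 1 size factor per library, and fold changes are on the log2(value + 1) scale from limma, with a call at an adjusted p under 0.05. Of 38 members, 15 fell and 4 rose, and 19 were not called. Over all 5886 genes 60.9% were called, 30.9% lower and 30.1% higher, so the share of members called (19 of 38) was below the background, while more members fell than rose. The median log2 fold change was -0.29 over members and -0.01 over all genes. In bulk RNA, fewer cells with a transcript and less of it per cell cannot be told apart. Scaling by total reads, in place of the deposited size factors, moved the median of all genes to -0.23. Under it 23 members were called lower and 1 higher, while over all genes 40.4% were called lower and 17.5% higher. Library values of the 2 strains did not overlap for 21 members, 16 below and 5 above wild type, against 65.6% of all genes.

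The classes differed. Of the polymerase I subunits 5 of 7 fell and 0 rose, with a median log2 fold change of -1.12. Of the polymerase II subunits 3 rose and 1 fell, with a median of 0.26, or 0.03 under total-read scaling. Of 10 polymerase III subunits 2 fell and 0 rose, with a median of -0.07 that turned to 0.05 without wild type replicate 1 and to 0.01 without triple mutant replicate 3. Under total-read scaling 4 of these 10 were lower and 0 higher, with a median of -0.29. That scaling called 40.4% of all genes lower and 17.5% higher, so the share of these 10 that was lower was near the background. The 2 subunits shared by I and III had a median of -0.56 with 1 call, and the 5 shared by all enzymes had -0.41 with 1 call, both lower. Of the RRN genes 5 fell and 1 rose, with a median of -0.29. Called members that fell by at least 2-fold numbered 5 of 38, 4 of them polymerase I genes and 1 an RRN gene, against 12% of all genes, and 0 members rose that much, against 7.95%. The share that fell by 2-fold was thus near that of all genes.

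**Figure D2:**
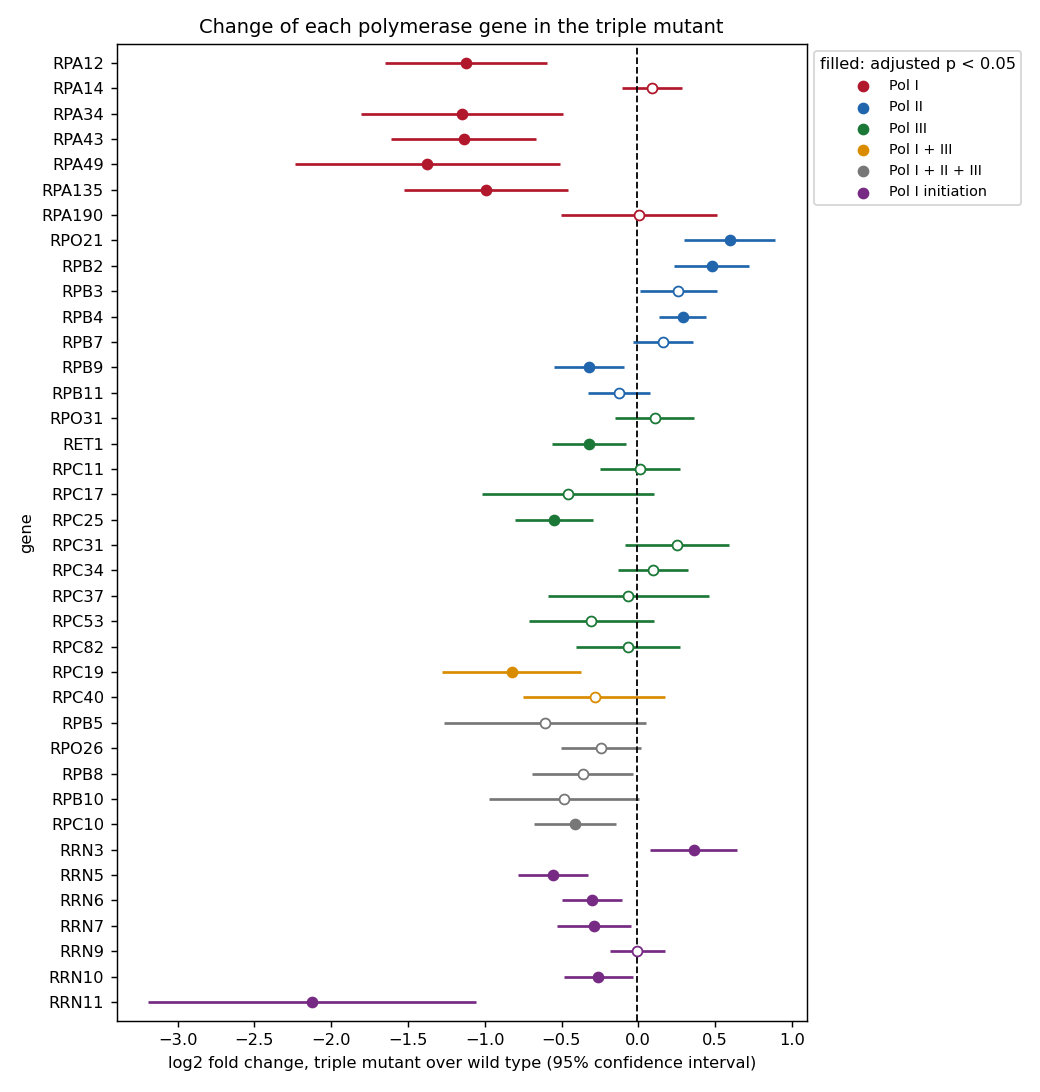
Log2 fold change of each polymerase gene in the triple mutant over wild type (x axis), with 95% confidence intervals from limma; filled points passed an adjusted p of 0.05 and the dashed line is the median of all genes. The 5 polymerase I genes that passed lie between -1.37 and -0.99, and the 3 polymerase II genes that rose between 0.29 and 0.60.

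Polymerase I is built around Rpa190 and Rpa135, and their transcripts did not move together. RPA135 (chromosome XVI, 577585 to 581196) had 3333, 4503 and 4677 normalized reads in the triple mutant, 12170, 8037 and 8742 in pil1 and 10610, 6025 and 8652 in wild type, with replicates 1 to 3 given in that order here and below. All triple mutant libraries were below all others, and RPA135 fell 1.99-fold against wild type (log2 fold change -0.99, SE 0.24, adjusted p = 0.00555). RPA190 (chromosome XV, 960987 to 965981) had 4076, 4859 and 4858 in the triple mutant, 6998, 4528 and 5185 in pil1 and 6000, 3315 and 4811 in wild type. These ranges overlapped, and its log2 fold change was 0.00 (95% confidence interval -0.51 to 0.51, adjusted p = 0.994). Per kb of coding length the ratio of RPA135 to RPA190 was 1.13, 1.28 and 1.33 in the triple mutant, 2.41, 2.45 and 2.33 in pil1 and 2.45, 2.51 and 2.49 in wild type. This ratio of transcripts, which needs no scaling between libraries, averaged 1.25 ± 0.10 in the triple mutant and 2.48 ± 0.03 in wild type (SD, n = 3 each), with no overlap. An exact permutation test of 3 libraries against 3 cannot go below p = 0.1, so ratios are given as values.

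The stalk of polymerase I, which receives the initiation factor Rrn3, is made of Rpa43 and Rpa14. RPA43 had 377, 541 and 483 normalized reads in the triple mutant and 1293, 788 and 1033 in wild type. It fell 2.20-fold (log2 fold change -1.14, SE 0.21, adjusted p = 0.00132), with every triple mutant library below every wild type one. RPA14 had 991, 1045 and 957 in the triple mutant and 1009, 843 and 971 in wild type, with a log2 fold change of 0.09 (95% confidence interval -0.11 to 0.28, adjusted p = 0.403), or -0.14 under total-read scaling. RPA14 was the 1 member to overlap another annotated gene, YDR157W on the same strand, by 8 bases. Partner transcripts of the stalk thus separated, as those of the large subunits did.

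Rpa49 and Rpa34 form a heterodimer, related to TFIIF and TFIIE of the polymerase II system, that aids initiation and elongation. RPA49 had 386, 546 and 515 normalized reads in the triple mutant, 1848, 901 and 1453 in pil1 and 1777, 661 and 1610 in wild type. It fell 2.59-fold (log2 fold change -1.37, SE 0.38, adjusted p = 0.0121), and its wild-type spread was wide because replicate 2 was low. RPA34 had 389, 459 and 424 in the triple mutant and 1184, 562 and 1240 in wild type, and fell 2.22-fold (adjusted p = 0.00779). The ratio of RPA49 to RPA34 per kb averaged 0.636 ± 0.069 in the triple mutant and 0.745 ± 0.092 in wild type (SD, n = 3 each) and overlapped. RPA12, whose product serves RNA cleavage and termination, had 131, 210 and 157 in the triple mutant and 448, 261 and 382 in wild type, and fell 2.17-fold (adjusted p = 0.00272). It was also the 1 polymerase I gene without the PAC core in its 300 upstream bases. Without triple mutant replicate 1 the median of the 7 polymerase I genes was -0.96, and without wild type replicate 2 it was -1.32. The calls of RPA34, RPA49 and RPA135 ended only when replicate 1 of both strains was left out (adjusted p = 0.0777, 0.12 and 0.0521, with RPA135 at -0.65), while those of RPA12 and RPA43 held in all 19 other settings.

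Of the polymerase II subunit transcripts 3 rose, 1 fell and 3 were not called, and under total-read scaling 1 was called higher and 2 lower (RPB9 and RPB11). RPO21, the gene of the largest subunit Rpb1, had 19140, 14900 and 17790 normalized reads in the triple mutant, 12490, 10390 and 11040 in pil1 and 12070, 10380 and 11740 in wild type. It was higher in every triple mutant library and rose 1.51-fold (log2 fold change 0.60, SE 0.13, adjusted p = 0.00368). It was the 1 polymerase II gene still called higher under total-read scaling (0.37, adjusted p = 0.0156). RPB2, of the second-largest subunit, had 10920, 12110 and 11540 in the triple mutant, against 9057, 7660 and 8113 in wild type, and rose 1.39-fold (adjusted p = 0.00415, with adjusted p = 0.0972 and a log2 fold change of 0.25 under total-read scaling). Unlike that of the polymerase I pair, the RPB2 to RPO21 ratio per kb overlapped between strains, at 0.959 ± 0.175 in the triple mutant and 1.03 ± 0.04 in wild type (SD, n = 3 each).

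The polymerase II stalk is formed by Rpb4 and Rpb7. RPB4 had 4505, 4652 and 4658 normalized reads in the triple mutant and 3711, 3826 and 3773 in wild type, and rose 1.22-fold (adjusted p = 0.00501). That call did not hold under total-read scaling (log2 fold change 0.06, adjusted p = 0.633). RPB7 was not called (log2 fold change 0.16, or -0.07 under total-read scaling). RPB9, which acts in start-site choice and fidelity and resembles Rpa12 and Rpc11, had 304, 296 and 279 in the triple mutant and 339, 357 and 406 in wild type. It fell 1.25-fold (log2 fold change -0.32, SE 0.10, adjusted p = 0.0199), a call that ended without wild type replicate 3 or triple mutant replicate 3. RPB3 and RPB11, which form the platform on which the enzyme assembles, were not called, at log2 fold changes of 0.26 and -0.13.

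Most polymerase III subunit transcripts did not pass the test. The stalk subunit gene RPC25 had 297, 388 and 386 normalized reads in the triple mutant, 506, 515 and 522 in pil1 and 531, 515 and 513 in wild type. It fell 1.47-fold (log2 fold change -0.55, SE 0.11, adjusted p = 0.00242) and kept its call in all 19 other settings. RET1, of the second-largest subunit, had 3037, 3150 and 2997 in the triple mutant and 4358, 3538 and 3619 in wild type, and fell 1.25-fold (adjusted p = 0.0263). This call was lost in 5 settings, among them without wild type replicate 1 and without triple mutant replicate 1 or 3. RPO31, of the largest subunit, was not called, at 3965, 3936 and 3788 in the triple mutant and 4091, 3205 and 3617 in wild type. The RET1 to RPO31 ratio per kb was 0.973, 1.02 and 1.01 in the triple mutant, 1.39, 1.41 and 1.43 in pil1 and 1.35, 1.40 and 1.27 in wild type, without overlap between the triple mutant and the others. For polymerases I and III alike, the second-largest subunit's transcript was thus lower relative to that of the largest in the triple mutant than in wild type.

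The other polymerase III genes ranged between log2 fold changes of -0.46 and 0.25, and 0 of them were called, though RPC17 and RPC53 were called lower under total-read scaling, and RPC53 also without wild type replicate 2. They were the stalk gene RPC17 (-0.46), the cleavage and termination gene RPC11 (0.01), the initiation trimer of RPC31 (0.25), RPC34 (0.10) and RPC82 (-0.07), and the TFIIF-like pair RPC37 (-0.07) and RPC53 (-0.31). RPC17 had the lowest count of any member, at 129, 149 and 167 normalized reads in the triple mutant and 201, 165 and 250 in wild type. Its 95% confidence interval reached -1.02, so a 2-fold fall was within the error. The intervals of the other 9 polymerase III genes lay within 2-fold. Promoters of 8 of the 10 carried the PAC core, as those of 6 of 7 polymerase I genes did. The medians of these classes were -0.07 and -1.12, and any part of the core in them was not tested.

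Rpc40 and Rpc19 form the assembly platform of polymerases I and III, the counterpart of Rpb3 and Rpb11. RPC19 had 638, 921 and 865 normalized reads in the triple mutant, 1515, 1258 and 1592 in pil1 and 1650, 1052 and 1628 in wild type. It fell 1.77-fold (log2 fold change -0.82, SE 0.20, adjusted p = 0.0063), with triple mutant replicate 1 the lowest, and the call ended when replicate 1 of both strains was left out (adjusted p = 0.0611). RPC40 had 1788, 2036 and 1951 in the triple mutant and 2770, 1710 and 2712 in wild type, where replicate 2 lay below every triple mutant library and the others above them, and it was not called (adjusted p = 0.254). It was called lower without wild type replicate 2 and under total-read scaling. Relative to their polymerase II counterparts both were lower in the triple mutant than in wild type. The RPC19 to RPB11 ratio per kb averaged 1.01 ± 0.18 in the triple mutant and 1.64 ± 0.36 in wild type, and that of RPC40 to RPB3 was 1.24 ± 0.08 and 1.83 ± 0.33 in the same order (SD, n = 3 each), neither with overlap.

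The 5 subunits found in all enzymes had negative log2 fold changes, and 1 passed the test. RPC10, the gene of Rpb12, had 388, 391 and 413 normalized reads in the triple mutant and 588, 458 and 549 in wild type, and fell 1.33-fold (adjusted p = 0.0141), a call that ended without wild type replicate 1 (adjusted p = 0.0959 at most over the settings). RPB5 had a log2 fold change of -0.61 (95% confidence interval -1.26 to 0.05), RPB10 -0.48, RPB8 -0.36 and RPO26, the gene of Rpb6, -0.24, and none of these passed. Each of the 4 was called lower once wild type replicate 2 was left out, and also under total-read scaling. For RPB5 that library had 732 normalized reads where wild type replicates 1 and 3 had 1474 and 1450, and the triple mutant had 769, 654 and 878.

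The RRN genes encode factors that bring polymerase I to the ribosomal DNA promoter. Rrn6, Rrn7 and Rrn11 make up the core factor, and RRN11 (chromosome XIII, 190244 to 191767) had the largest fold change of the 38 genes. It had 302, 207 and 307 normalized reads in the triple mutant, 1674, 705 and 1233 in pil1 and 1860, 533 and 1621 in wild type. All triple mutant libraries were below all others although wild type replicate 2 was far below its fellows, and RRN11 fell 4.37-fold (log2 fold change -2.13, SE 0.47, adjusted p = 0.00381), a call kept in all 19 other settings. Its partners moved little, with RRN6 at a log2 fold change of -0.30 (adjusted p = 0.0135) and RRN7 at -0.29 (adjusted p = 0.0411). The RRN6 call ended when replicate 1 of both strains was left out, and that of RRN7 in 8 settings, including without any 1 wild type library or triple mutant replicate 3, where its log2 fold change was -0.19. The RRN11 to RRN6 ratio per kb was 0.486, 0.281 and 0.479 in the triple mutant, against 2.20, 0.649 and 2.06 in wild type.

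Rrn5, Rrn9 and Rrn10 belong to the upstream activating factor, and Rrn3 is the factor that makes polymerase I competent to start. RRN5 had 314, 314 and 376 normalized reads in the triple mutant and 513, 480 and 482 in wild type, and fell 1.47-fold (log2 fold change -0.56, SE 0.10, adjusted p = 0.00122) in all settings. RRN10 was close to the threshold (log2 fold change -0.26, adjusted p = 0.0474), and its call ended in 12 settings, among them edgeR, DESeq2 and 5 of the 6 that left out 1 library of these strains. RRN9 was not called, at a log2 fold change of -0.01 (-0.23 under total-read scaling). RRN3 was the 1 RRN gene higher in the triple mutant, where it had 2132, 2740 and 2348 normalized reads, while wild type had 1681, 2095 and 1836. It rose 1.28-fold (adjusted p = 0.0309), without overlap by a narrow margin, and the call ended under total-read scaling (log2 fold change 0.14, adjusted p = 0.525) and without wild type replicate 1 or 3 or triple mutant replicate 2 or 3.

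**Figure D3:**
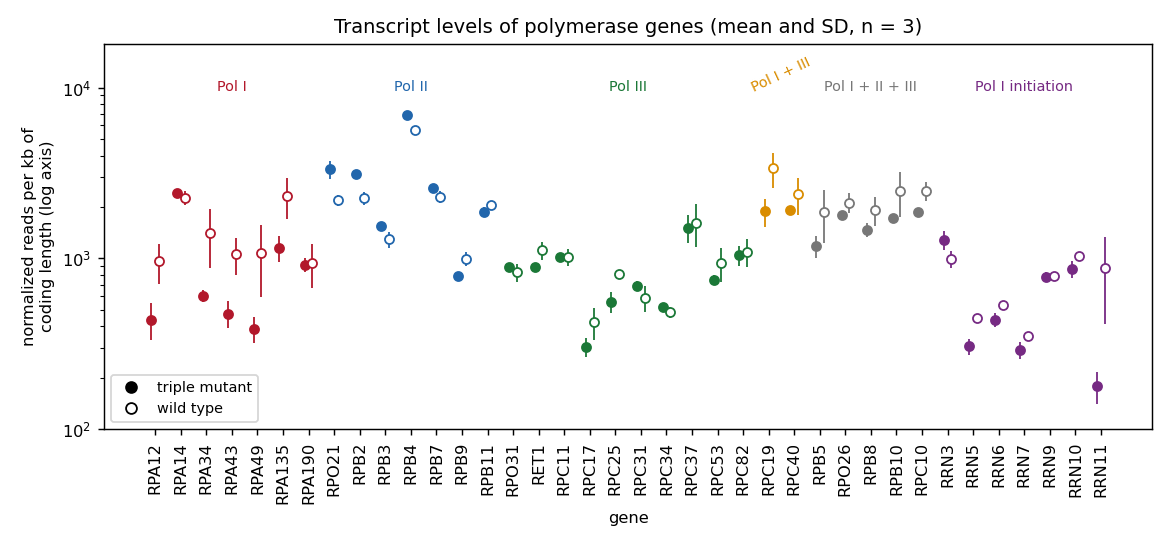
Mean level of each polymerase gene in normalized reads per kb of coding length (log axis) in the triple mutant (filled, left of each pair) and wild type (open, right), with SD bars over 3 libraries. RPB4 is the highest in both strains, and RRN11, at 178, is the lowest of the 38 in the triple mutant.

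Levels per kb allow genes to be set beside each other. In the triple mutant the median level was 604 normalized reads per kb over polymerase I genes, 2570 over polymerase II genes and 818 over polymerase III genes, where wild type had 1081, 2191 and 885. RPB4 had the highest level in both strains, at 6914 ± 130 in the triple mutant and 5661 ± 87 in wild type (SD, n = 3 each). The lowest was RRN11 at 178 ± 37 in the triple mutant, where it ranked 38th, against 878 ± 464 and rank 29 in wild type. In wild type RRN7 ranked last at 353 ± 8. Highest and lowest members were 38.8-fold apart in the triple mutant and 16.0-fold apart in wild type, and within the polymerase I class 6.24-fold and 2.48-fold apart.

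Ratios of homologous subunits across enzymes compared the classes within each library. RPA135 to RPB2, the second-largest subunits of I and II, gave 0.311, 0.379 and 0.412 in the triple mutant, 1.30, 1.01 and 1.07 in pil1 and 1.19, 0.800 and 1.09 in wild type. RET1 to RPB2, the same comparison for III, averaged 0.283 ± 0.011 in the triple mutant and 0.493 ± 0.019 in wild type (SD, n = 3 each). Neither overlapped. For the largest subunits, RPA190 to RPO21 overlapped at 0.282 ± 0.059 in the triple mutant and 0.426 ± 0.093 in wild type, and RPO31 to RPO21 did not, at 0.271 ± 0.037 and 0.378 ± 0.021 in the same order. In the latter pair RPO21 rose (log2 fold change 0.60), while RPO31 was not called (0.11). In the stalks, RPA43 to RPB7 averaged 0.186 ± 0.039 in the triple mutant and 0.467 ± 0.144 in wild type, without overlap. The reverse direction was seen for RPC11 to RPB9, the cleavage subunits of III and II, at 1.29 ± 0.02 in the triple mutant and 1.03 ± 0.11 in wild type. There RPB9 fell (log2 fold change -0.32), while RPC11 was not called (0.01).

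**Figure D4:**
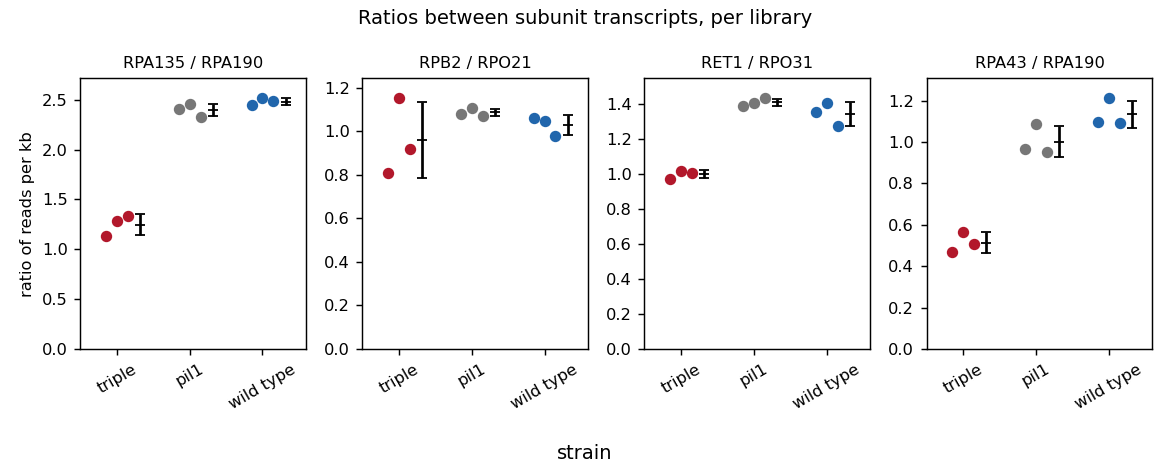
Ratios of normalized reads per kb between pairs of subunit transcripts (y axes from 0) in each library of the triple mutant, pil1 and wild type; points are libraries and bars are mean and SD (n = 3). RPA135 to RPA190, RET1 to RPO31 and RPA43 to RPA190 lie lower in the triple mutant, where RPB2 to RPO21 overlaps.

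Deletion of PIL1 alone was compared with wild type next. Of 38 members limma called 0, where 0.017% of all genes were called, namely PIL1 itself. At an unadjusted p under 0.05 limma listed 0 members and 59 genes, and edgeR and DESeq2 on recovered reads also called 0 members. Same-numbered libraries of these strains deviated together, and with the replicate number as a block 1 member and 177 genes had an unadjusted p under 0.05. With the block and these strains alone, a setting chosen after seeing the data, they numbered 5 and 826. Neither fit called a member after adjustment. The members' log2 fold changes lay between -0.21 (RRN7) and 0.26 (RPA190), with a median of 0.05, and polymerase I genes had a median of 0.08. For 37 of 38 members the 95% confidence interval lay within 2-fold of no change. The exception was RRN11, with 1674, 705 and 1233 normalized reads in pil1 and 1860, 533 and 1621 in wild type (interval -1.12 to 1.02). RRN7 was the 1 member whose libraries did not overlap, at 485, 498 and 437 in pil1 and 535, 544 and 559 in wild type (log2 fold change -0.21), and it was not called. Of all 5886 genes tested, 204 had every pil1 library above wild type and 162 had every one below it.

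The triple mutant was also set against pil1, which shares the PIL1 deletion; this comparison uses the same triple mutant libraries as the one with wild type. Of 38 members 15 fell and 4 rose, against 62.9% of all genes called, 32.1% lower and 30.8% higher. Scaling by total reads gave 24 members lower and 1 higher, with 43.7% of all genes lower, 17.4% higher and their median at -0.27. Polymerase I genes had a median of -1.20, with 5 of 7 lower, and polymerase II genes a median of 0.21 (-0.05 under total-read scaling), with 3 higher and 1 lower. RRN11 fell 4.22-fold against pil1 (adjusted p = 0.00406), RPA49 2.81-fold and RPA43 2.33-fold, while RPA190 (-0.26, adjusted p = 0.337) and RPA14 (0.04) were not called. RPO26 and RPB10 were called lower in this comparison (adjusted p = 0.0359 and 0.0298), and RRN7 and RRN10 were not (adjusted p = 0.536 and 0.058). The calls of RPO26, RPB10 and RRN3 each ended when certain single libraries were left out, pil1 replicates 1 and 3 and triple mutant replicates 2 and 3 among them, and those of RPB2, RPB4 and RRN3 under total-read scaling.

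**Figure D5:**
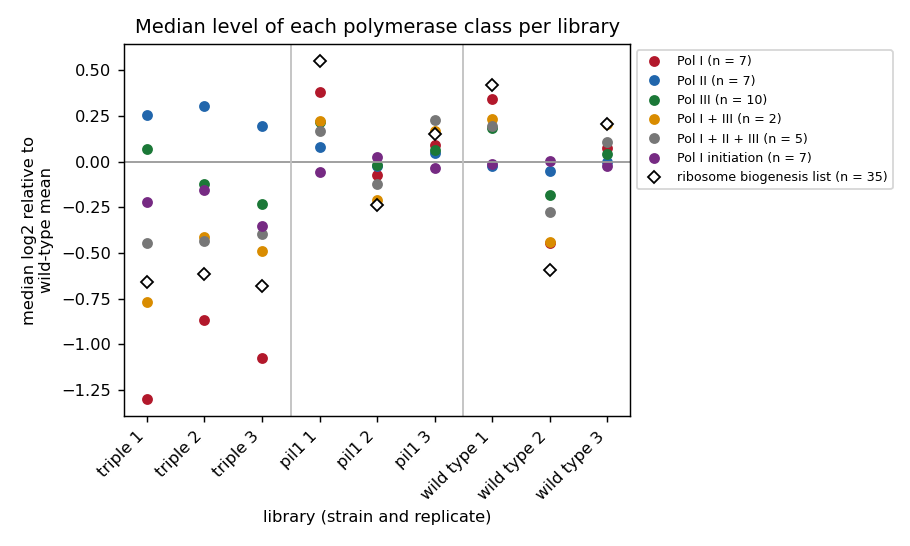
Median log2 level of each polymerase class and of a list of 35 ribosome biogenesis genes (open diamonds) in each library, relative to the wild-type mean of each gene. Polymerase I genes sit at -1.30 to -0.87 in the triple mutant, and replicate 2 is the lowest for them in pil1 and in wild type.

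Replicate 2 of wild type and of pil1 lay low for many of these genes. Polymerase I genes had a median of -1.30, -0.87 and -1.07 in the triple mutant, 0.38, -0.07 and 0.09 in pil1 and 0.35, -0.45 and 0.08 in wild type, relative to the wild-type mean. Wild type replicate 2 was the lowest of its group for 28 of 38 members, where this held for 37.6% of all genes, and pil1 replicate 2 for 24 of 38, where 36.8% held. The class medians of polymerase II and RRN genes were -0.05 and 0.01 in wild type replicate 2. Single genes of these classes differed from them, and RRN11 lay farthest below its group mean of all members in replicate 2, by -0.68 in pil1 and -1.14 in wild type. Across the 38 members the deviation of pil1 replicate 2 from its group mean had a Pearson correlation of 0.623 (Spearman 0.405) with the log2 fold change of the triple mutant over wild type, and of 0.014 (Spearman 0.017) across all genes. Genes are not independent replicates, and same-numbered pil1 and wild type libraries deviated together (Pearson 0.833 across all genes for number 2), so these values describe the libraries only. Left out together, wild type and pil1 replicates 2, a choice made after seeing the data, gave 19 members lower and 4 higher in the triple mutant against wild type, where 31.2% of all genes were lower and 28.5% higher.

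Members with and without the PAC core had similar medians, though a larger share of those with it fell. Among members the median log2 fold change in the triple mutant over wild type was -0.29 with the PAC core (10 of 20 fell, 1 rose) and -0.26 without it (5 of 18 fell, 3 rose). Over all genes the median was -0.12 with the core and 0.02 without it. With both core and RRPE it was -0.29 over 333 genes and -0.30 over 16 members. Of all 1081 genes with the core, 357 were called lower (33.0%) and 275 higher. Of all 4720 genes without it, 1437 were called lower (30.4%) and 1485 higher. The core was present upstream of RPA190 and RPA14, which were not called, and absent upstream of RPA12, which fell. Among members with the core the median was -1.065 over polymerase I genes and -0.066 over polymerase III genes, so the core was mixed with class. Whether the core has a part in these changes was not tested.

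Genes that work with the polymerases were counted from lists chosen with earlier results of these data known. Over all genes 30.1% were called higher and 30.9% lower in the triple mutant against wild type. Under total-read scaling these shares were 17.5% and 40.4%. The counts were not tested against them. In the triple mutant against wild type, general initiation factors of polymerase II numbered 10 higher and 1 lower of 18 (6 and 2 under total-read scaling), with a median log2 fold change of 0.35. TOA1 of TFIIA (0.84, adjusted p = 0.000105), the TFIIH helicase gene SSL2 (0.68) and TFG2 of TFIIF (0.70) rose, and TFA1 of TFIIE fell (-0.34, adjusted p = 0.00973). Of 11 elongation factor genes 6 rose and 1 fell (2 and 2 under total-read scaling), with DST1, which encodes TFIIS, at 0.53, SPT6 at 0.48 (not called under total-read scaling) and POB3, a subunit of the histone chaperone FACT, at -0.68. Genes for polymerase assembly and import had 4 higher and 2 lower of 8 (2 and 2 under total-read scaling). IWR1, which aids nuclear import of polymerase II, rose 1.85-fold. The GTPase genes NPA3 (log2 fold change 0.56) and GPN2 (0.33, not called under total-read scaling) also rose, while their relative GPN3 (-0.72) and RTP1 (-0.28) fell.

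Lists for polymerases I and III were counted likewise. The shares over all genes were again 30.1% higher and 30.9% lower, or 17.5% and 40.4% under total-read scaling. Of 8 further polymerase I factors 3 rose and 2 fell (1 and 2 under total-read scaling), with a median of 0.11 that was -0.12 under that scaling. The topoisomerase gene TOP1 (-0.74, adjusted p = 0.000815) and the replication fork barrier gene FOB1 (-0.51) fell, and HMO1, a high-mobility-group protein of ribosomal DNA, rose (0.67). Of 10 polymerase III initiation and repression genes 3 rose and 4 fell (1 and 4 under total-read scaling), with a median of -0.01 (-0.24 under that scaling). BRF1 of TFIIIB rose 1.86-fold (adjusted p = 2.81e-05), TFC8 of TFIIIC fell 1.91-fold and PZF1, which encodes TFIIIA, fell 2.08-fold, and TFC1 and TFC3 of TFIIIC were called higher (0.20 and 0.26) but not under total-read scaling (-0.03 and 0.04). Of 10 regulators 4 rose and 0 fell, also under total-read scaling. Those that rose included DOT6, with 43930, 23890 and 30160 normalized reads in the triple mutant and 14370, 12150 and 15530 in wild type (1.18, adjusted p = 0.00132), STB3 (0.64) and the corepressor gene CRF1 of ribosomal protein genes (0.65). TOD6, named above with DOT6, was not called (0.07, adjusted p = 0.869, or -0.16 under total-read scaling). Of 35 ribosome biogenesis genes 14 fell and 2 rose, with a median of -0.60 (21 and 1 under total-read scaling, with a median of -0.83). Relative to the wild-type mean, library medians of this list were -0.659, -0.612 and -0.679 in the triple mutant. They were 0.552, -0.239 and 0.150 in pil1 and 0.420, -0.592 and 0.205 in wild type, so wild type replicate 2 lay near the triple mutant. The smallest p-values were those of GAR1 (-1.44), UTP8 (-1.51) and NOP58 (-2.17), while UTP20 (0.83) and KRR1 (0.51, not called under total-read scaling) rose. In pil1 against wild type 0 genes of these lists were called.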

How the data were processed

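Polyadenylated RNA of 9 libraries, 3 for each of 3 strains, had been sequenced, per the labels. Per the submitters' processing notes, build R64 and the tools GSNAP, DESeq and DESeq2 were used, without versions or roles. Sources used here do not name the counter, the annotation or the strand handling, and reads of sense and antisense genes therefore cannot be separated. One deposited file gives each gene's signal by library as reads over that library's size factor. Divided by what 1 read was worth in each library, 100% of its values were whole numbers within 1e-06. The other deposited file holds log2 values after a transformation whose kind the sources used here do not name, and it served as an alternative.

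Log2(value + 1) was fitted with limma 3.58.1 in R 4.3.3 (trend and robust eBayes, all 9 libraries, two-sided, Benjamini-Hochberg adjustment over 5886 genes with a mean of at least 10); the other 329 genes were left out. The count tests on recovered reads, edgeR 4.0.16 and DESeq2 1.42.0, called 3610 and 3742 genes in the triple mutant against wild type. The code of the fit was checked on simulated counts with known changes. Their spread was set and not taken from these libraries, so the check does not measure errors in these data. Other settings were TMM or total-read scaling, the transformed values, a pseudocount of 5, no filter or a minimum mean of 50, only the strains compared, the replicate block, and libraries left out. Members, classes and lists were chosen with earlier results of these data known. The text names every member and, of each other list, up to 3 genes with the smallest p and those called against the direction of most. TOD6 was added, with its values seen, because it is named with DOT6 as a repressor. YDR157W and, in the closing part, CAT2 were named after their values or positions were seen. Sequences and positions come from the R64 reference; 0 members shared 90% identity or more with another gene over 50% of their length.

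Replicates of 1 strain differed by a chi-square per degree of freedom of 36.9 to 400.8, and every library was counted as a sample of its own. Deviations of same-numbered pil1 and wild type libraries correlated at 0.639, 0.833 and 0.579, so their numbers were taken to pair them; the pairing comes from this check, not from the labels. The fit without the block is the one reported, and adding the block changed no call between them. Where nothing tells how cultures were kept apart, p-values measure the spread between these libraries.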

Additional observations from a re-analysis of the deposited data

How the results depend on the processing

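Every one of 19 other settings per comparison was run for each of the 38 members and for the counts, and 0 called members changed sign. Counts of called members in the triple mutant against wild type ranged between 14 and 23 with 1 library left out (19 with all), between 16 and 22 against pil1, and were 0 throughout for pil1 against wild type. Over all genes those fits called 3195 to 3494, 3263 to 3609 and 1 throughout, in that order. Leaving out replicate 1 of the triple mutant and of wild type together gave 11 members and 3139 genes, against 19 and 3586 with all libraries; the cause was not tested. In pil1 against wild type DESeq2 called 2 genes where limma called 1. With the replicate block, calls of the triple mutant against wild type were 23 members and 4024 genes, those against pil1 23 and 4162, and those of pil1 against wild type 0 and 1; deviations of triple mutant libraries correlated with same-numbered wild type and pil1 libraries at 0.05 and 0.069 for number 1, 0.191 and 0.237 for number 2, and 0.362 and 0.439 for number 3. Each was highest with its own number, which is a hint from the data and not from the design. As number 1 was under 0.1, the triple mutant was taken to share only a number, and those block fits are given as counts. With the block and only the strains compared, the counts of members were 16, 23 and 0 in that order, and with wild type and pil1 replicates 2 both left out they were 23, 23 and 0. Over all genes the counts were 3330, 3732 and 1 in the former setting and 3510, 3572 and 1 in the latter. Both settings were chosen after seeing the data. Of the 19 members called against wild type 6 (RPA12, RPA43, RPO21, RPC25, RRN5 and RRN11) kept their calls in all settings, and 14 of 19 against pil1. Of the 19 members not called against wild type 9 were called in at least 1 setting. Limits are 3 libraries per strain, a strain difference at LYS2, and a scaling whose choice moves small log2 changes across 0. Intervals cover the spread between libraries.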

Other observations

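Some members and their neighbours had changes of unlike size or direction in the triple mutant against wild type. The pairs given here were picked with their values or positions seen, and pairs not given include ones that changed in the same direction. RPA43 and RPA190 lie beside each other on chromosome XV and are read outward from a shared stretch of 804 bases, which holds both of their PAC windows. RPA43 fell 2.20-fold and RPA190 had a log2 fold change of 0.00, and their ratio per kb averaged 0.515 ± 0.049 in the triple mutant, 1.00 ± 0.08 in pil1 and 1.13 ± 0.07 in wild type (SD, n = 3 each). RRN11 is read outward from a stretch of 1020 bases that it shares with CAT2, a carnitine acetyltransferase gene, and fell 4.37-fold where CAT2 had a log2 fold change of 2.42 (adjusted p = 0.000343). RPO26, which was not called, shares 234 bases with PZF1, at log2 fold changes of -0.24 and -1.05, both negative. In all, 27 of 38 members had an upstream neighbour read in the opposite direction. No test was made of whether neighbours differ more or less than other genes.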
